A study of Homo sapiens with 8 samples.

Results

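FLT3 and 9 related receptor tyrosine kinase genes were examined for H3K27me3, a histone mark of silenced chromatin that the Polycomb complex PRC2 places, in MOLM14 cells. The genes were chosen by name: FLT3, KIT, PDGFRA and PDGFRB (class III receptors), FLT1, KDR and FLT4 (receptors for vascular endothelial growth factors, VEGF), and FGFR1, FGFR2 and FGFR3 (receptors for fibroblast growth factors, FGF). The members of the set are thus 10 genes, with 135 of 466744 deposited peaks within 25 kb of their starts: 27 of 104980 in DMSO 1, 31 of 104566 in AC220 1, 30 of 117556 in DMSO 2 and 47 of 139642 in AC220 2. MOLM14, a cell line from human acute myeloid leukaemia, bears a FLT3 internal tandem duplication, which keeps the kinase active. Cells received quizartinib (AC220), an inhibitor of that kinase, or its solvent DMSO for 24 h, and Drosophila S2 cells were added before lysis. The series holds 8 samples, of which 4 immunoprecipitated libraries (DMSO 1 and 2, AC220 1 and 2) have 1 peak list each, and the 4 inputs were not analysed here. Nothing in the labels says that libraries of 1 treatment came from separate cultures, so the p-values rest on a spread between libraries that may be technical. Expression was not measured in these files, so the identity of the cells could not be checked against marker genes.

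Receptor tyrosine kinases sit in the plasma membrane, pair up when an extracellular ligand binds, and phosphorylate each other and signalling proteins inside the cell. FLT3 and KIT serve blood stem cells and progenitors, the PDGF receptors serve mesenchymal cells, the VEGF receptors blood and lymph vessels, and the FGF receptors many tissues of the embryo. H3K27me3 commonly covers CpG-rich starts of developmental genes that a cell lineage keeps silent, as short peaks over a start or as broad domains.

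Each value below is a covered share: the percentage of the bases of a window that lie inside any peak of a library's list. Positions are on GRCh37, which the contig names and peak ends of the lists fit, and the gene starts, given to the nearest kb, were 13:28675 kb (FLT3), 13:29069 kb (FLT1), 5:180077 kb (FLT4), 4:55524 kb (KIT), 4:55992 kb (KDR), 4:55095 kb (PDGFRA), 5:149535 kb (PDGFRB), 10:123358 kb (FGFR2) and 4:1795 kb (FGFR3), with FGFR1 given below. The lists hold no read counts, so depth is unknown, and a list that lacks a peak does not show that the mark is absent. The libraries numbered 2 covered more of the genome (591 Mb in DMSO 2 and 497 Mb in AC220 2) than those numbered 1 (232 Mb and 192 Mb), and AC220 covered 17.2% less than DMSO among the libraries numbered 1 and 15.9% less among those numbered 2. Treatments are therefore compared within each number.

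Start sequences are shown for 2 pairs of genes that are alike in CpG content and unlike in the mark: FLT3 and FLT1, neighbours on chromosome 13, and FGFR2 and FGFR3. Each is the RefSeq window from 250 bases before to 50 bases after the gene's start, on its coding strand, taken from GRCh38.p14 and not from the build of the peak lists, with every CpG dinucleotide, the site of DNA methylation, in capitals.
FLT3: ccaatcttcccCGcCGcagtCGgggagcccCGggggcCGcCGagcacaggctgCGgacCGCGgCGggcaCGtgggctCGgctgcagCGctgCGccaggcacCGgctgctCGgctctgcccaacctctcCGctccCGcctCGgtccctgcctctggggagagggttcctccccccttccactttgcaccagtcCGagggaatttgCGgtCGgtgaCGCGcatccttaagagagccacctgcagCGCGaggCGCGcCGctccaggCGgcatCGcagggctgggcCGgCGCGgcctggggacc
FLT1: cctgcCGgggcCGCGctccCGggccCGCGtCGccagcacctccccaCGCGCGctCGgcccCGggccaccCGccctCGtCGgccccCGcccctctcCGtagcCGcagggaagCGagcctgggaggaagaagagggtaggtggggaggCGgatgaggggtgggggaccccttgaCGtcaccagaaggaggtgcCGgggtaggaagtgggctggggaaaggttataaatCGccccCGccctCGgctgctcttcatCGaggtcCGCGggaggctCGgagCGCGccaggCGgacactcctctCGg
FGFR2: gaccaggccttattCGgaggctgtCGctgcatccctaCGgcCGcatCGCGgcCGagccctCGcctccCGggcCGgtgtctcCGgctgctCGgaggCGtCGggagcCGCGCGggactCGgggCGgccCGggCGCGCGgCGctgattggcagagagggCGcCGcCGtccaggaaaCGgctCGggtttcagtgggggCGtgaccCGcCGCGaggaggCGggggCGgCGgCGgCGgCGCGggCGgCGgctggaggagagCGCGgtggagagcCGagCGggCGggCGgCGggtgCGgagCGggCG
FGFR3: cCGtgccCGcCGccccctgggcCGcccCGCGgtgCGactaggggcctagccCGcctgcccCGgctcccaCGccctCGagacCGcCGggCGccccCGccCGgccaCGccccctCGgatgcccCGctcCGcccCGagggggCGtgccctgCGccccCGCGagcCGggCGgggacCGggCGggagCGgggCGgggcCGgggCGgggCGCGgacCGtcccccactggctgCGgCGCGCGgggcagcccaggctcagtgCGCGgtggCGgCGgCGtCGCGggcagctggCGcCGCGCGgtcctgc
In GRCh38.p14 these windows lie at chr13:28100527-28100826 (FLT3, minus strand), chr13:28495079-28495378 (FLT1, minus), chr10:121598395-121598694 (FGFR2, minus) and chr4:1793043-1793342 (FGFR3, plus). The FLT3 window held 34 CpGs and the FLT1 window 33, against a median of 14 over all 34796 distinct windows of the table. Only 15.6% of windows held as many CpGs as FLT3. The FGFR2 and FGFR3 windows held 52 and 51, a number that 0.779% and 1.00% of windows reached. FGFR2 has 5 such RefSeq windows, of which only the 1 shown is described here. Of the 8 members with a window, KIT (38 CpGs) and KDR (22) also lay above the median, while PDGFRB (11) and the outermost of 2 PDGFRA windows (8) lay below it. The letters GGGCGG, read on both strands, occurred in 6 of these 8 windows, FLT3 and PDGFRA being the others, and in 44.9% of all windows.

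FLT3 itself carried no H3K27me3 peak. Within 5 kb and within 25 kb of its start the covered share was 0% in DMSO 1, AC220 1, DMSO 2 and AC220 2 alike, and no list had a peak within 100 kb on either side. The peak-free stretch around the start measured 355 kb in DMSO 1, 352 kb in AC220 1, 350 kb in DMSO 2 and 345 kb in AC220 2, and its ends differed by less than 10 kb between lists. The gene is 97.3 kb long in RefSeq, and the first peak past the start in the direction of transcription came at 117.2 to 118.3 kb in the 4 lists. Peak-free stretches at least as long made up 41.3% and 43.5% of the genome in DMSO 1 and AC220 1, and 25.6% and 26.8% in DMSO 2 and AC220 2. A 50 kb window with no peak in any list was common, at 41.5% of all windows tiled along chromosomes 1 to 22 and X, so the empty window of FLT3 is not rare in these data.

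The peak-free FLT3 locus lay between stretches with peaks. From 120 to 250 kb past the FLT3 start, 73.0% was covered in DMSO 1, 76.1% in AC220 1, 93.2% in DMSO 2 and 96.6% in AC220 2. On this side the RefSeq gene order runs FLT3, URAD, CDX2, PDX1 and GSX1, the last 3 being transcription factors of gut, pancreas and brain development. On the other side the order is FLT3, PAN3 and FLT1, and a marked stretch from 230 to 290 kb before the FLT3 start was covered over 19.9% and 24.3% in DMSO 1 and AC220 1, and over 48.0% and 59.5% in DMSO 2 and AC220 2. Gene names here give order only, because no annotation of the files' build was used to place peaks on genes. Taken whole, both flanks were covered more with AC220 under both numbers, by 3.11 and 3.39 percentage points on the PDX1 side and by 4.39 and 11.51 points on the FLT1 side. Single 10 kb bins of the PDX1 side went both ways in the libraries numbered 1. In those numbered 2 the largest rise there was in the bin centred 165 kb past the start (45.74% in DMSO 2, 81.25% in AC220 2). These flanks were drawn after the data had been seen, and no background share was computed for them.

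**Figure D1:**
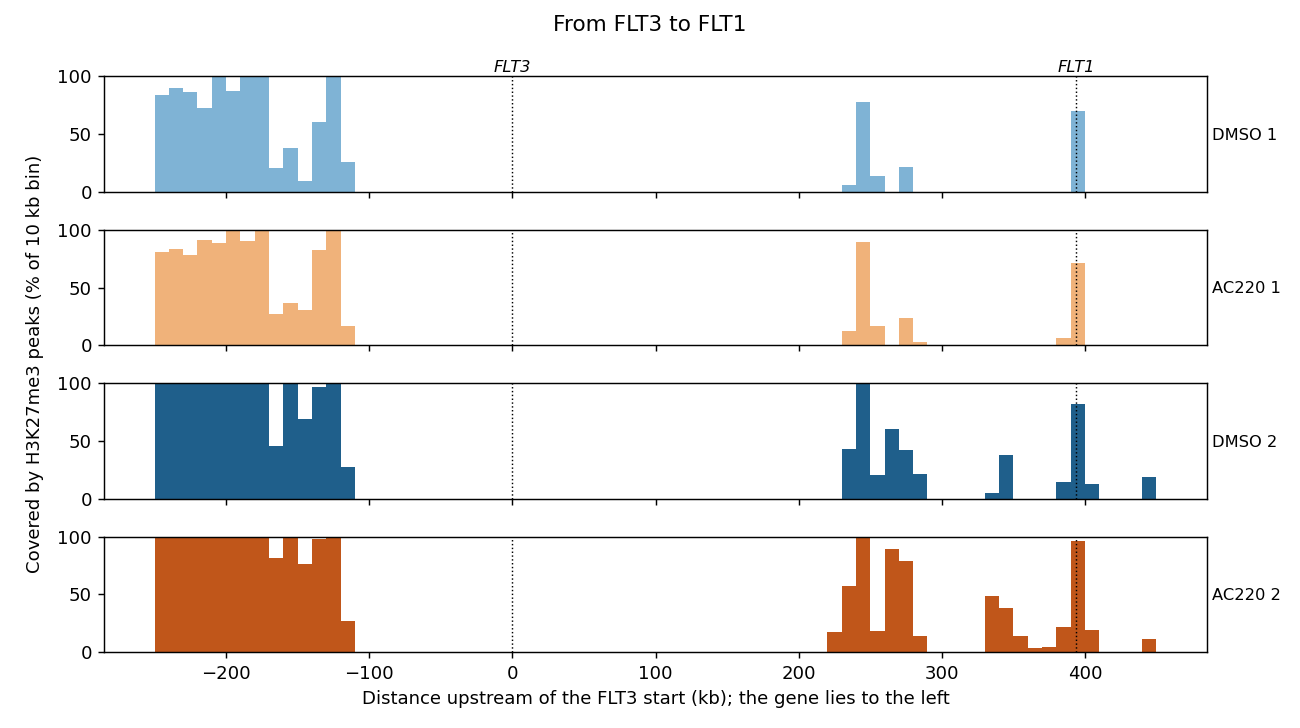
Share of each 10 kb bin covered by H3K27me3 peaks (vertical axis, %) against distance upstream of the FLT3 start (horizontal axis, kb), 1 panel per library; dotted lines mark the starts of FLT3 and FLT1. All 4 libraries show the same empty stretch around FLT3, of 345 to 355 kb, and peaks over the FLT1 start.

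FLT1, which encodes VEGF receptor 1 and is expressed in endothelium and monocytes, had a compact peak over its start in every library. Within 5 kb the covered share was 70.3% in DMSO 1, 77.7% in AC220 1, 92.2% in DMSO 2 and 95.5% in AC220 2. The peak over the start was 7.03 kb, 7.14 kb, 9.63 kb and 10.2 kb wide in that order, and by the authors' -log10 q it stood above 99.69%, 99.90%, 99.97% and 99.95% of the peaks of its own list. It was also wider than 94.6%, 96.5%, 86.9% and 92.6% of the peaks of its list. Beyond the peak little was covered: within 25 kb the share was 14.1%, 15.5%, 21.9% and 28.5%. AC220 was higher than DMSO within each number in both windows, but the 5 kb means of 81.2% ± 15.5 with DMSO and 86.6% ± 12.6 with AC220 (SD, n = 2) differed by less than their spread (exact permutation test, two-sided, p = 0.667). With 2 libraries against 2 this test cannot give a p below 0.33, which holds for every such p below. It pools the numbers, so the spread within a treatment includes the gap between libraries numbered 1 and 2. The difference within each number is not tested by it.

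KDR and FLT4, which encode the VEGF receptors of blood and lymph vessel endothelium, had higher covered shares in the lists numbered 2, which also cover more of the genome. At KDR the covered share within 25 kb was 5.19% in DMSO 1, 1.31% in AC220 1, 46.0% in DMSO 2 and 25.5% in AC220 2. AC220 was lower by 3.88 and 20.6 percentage points, the second being the largest difference of any member within 25 kb, but the number of the library separated the values more than the treatment did (25.6% ± 28.9 against 13.4% ± 17.1, SD, n = 2; exact permutation p = 0.667). The lower coverage at KDR lay mostly upstream: in the 25 kb before the start it was 10.4% in DMSO 1, 1.75% in AC220 1, 61.0% in DMSO 2 and 31.2% in AC220 2. The strongest KDR peak within 25 kb lay above 46.4% (DMSO 1), 39.0% (AC220 1), 75.4% (DMSO 2) and 56.0% (AC220 2) of its list by q. Within 5 kb of the KDR start the share was 0%, 2.17%, 60.3% and 42.2% in that order. Listed peaks thus covered little or nothing there in the libraries numbered 1. At FLT4 the share within 25 kb was 16.0% and 14.5% in DMSO 1 and AC220 1, and 43.7% and 44.0% in DMSO 2 and AC220 2, so treatments hardly differed. Of all 50 kb windows 83.1% in DMSO 1, 84.7% in AC220 1, 80.4% in DMSO 2 and 84.4% in AC220 2 had a lower share than FLT4. Its place among windows was thus much the same under both numbers. Within 5 kb FLT4 went in opposite directions under the 2 numbers (22.8% and 32.2%, then 74.2% and 68.7%). The window of 25 to 50 kb before the FLT4 start was covered more than the first 25 kb past the start in every library. It had 44.8%, 37.3%, 81.4% and 82.6% in the order DMSO 1, AC220 1, DMSO 2 and AC220 2. The first 25 kb past the start had 22.7%, 26.0%, 32.7% and 41.7%. Inside that stretch, the bin from 5 to 10 kb past the start was covered more than the upstream window (67.7%, 65.7%, 86.3% and 100%).

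KIT, the stem cell factor receptor of blood progenitors, mast cells and melanocytes, was marked at its start in all libraries. Within 5 kb the covered share was 57.8% in DMSO 1, 63.7% in AC220 1, 80.8% in DMSO 2 and 92.8% in AC220 2. AC220 was higher by 5.83 and 12.04 percentage points (69.3% ± 16.2 against 78.2% ± 20.6, SD, n = 2; exact permutation p = 0.667), again less than the spread within a treatment. The listed peaks stopped inside the gene: no list had a peak from 16.6 to 147 kb past the KIT start, a stretch of 130 kb that is the longest peak-free one of the PDGFRA, KIT and KDR array, while the RefSeq length of KIT is 82.8 kb. Upstream of KIT the peaks continued, with 84.5% of the 25 kb before the start covered in DMSO 2 and 74.8% in AC220 2, against 15.3% and 22.6% in DMSO 1 and AC220 1.

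PDGFRA, the receptor of mesenchymal progenitors, had the second highest coverage of the 10 genes within 25 kb in every library, at 33.4% in DMSO 1, 28.7% in AC220 1, 65.7% in DMSO 2 and 64.7% in AC220 2. Within 5 kb it was covered over 95.0% and 81.9% in DMSO 1 and AC220 1, and over 91.9% and 91.6% in DMSO 2 and AC220 2. At this gene the treatments did not overlap within 5 kb (93.5% ± 2.19 against 86.7% ± 6.83, SD, n = 2, exact permutation p = 0.333, the smallest possible). The libraries numbered 2 differed by only 0.350 points. What share of all 10 kb windows is separated in this way was not computed, so the separation is not read as a feature of PDGFRA. The treatments were no longer separated, with p = 1 in the exact permutation test, when the start was moved by -1 kb or when peaks of -log10 q of at least 5 alone were kept, where the difference was -4.72 and -0.175 points. In DMSO 1 a single peak of 10.9 kb lay over the start, while AC220 1 listed 2 peaks with a gap of 0.945 kb at the start. PDGFRB, the receptor of pericytes and fibroblasts, had low peak coverage. Within 5 kb the share was 0% in DMSO 1 and AC220 1, 16.1% in DMSO 2 and 33.1% in AC220 2. Its start-proximal peaks, seen in lists numbered 2 alone, were short, and a peak lying 12.8 to 15.2 kb before the start was present in all 4 lists. Past the start of PDGFRB the libraries numbered 1 had no peak for 434 kb with DMSO and 445 kb with AC220, a stretch that begins with the gene itself and its neighbour in the RefSeq order, CSF1R. Peak-free stretches as long as the one around the PDGFRB start made up 36.8% of the genome in DMSO 1 and 38.2% in AC220 1.

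FGFR2, whose receptor acts in epithelial and skeletal development, lay in the widest domain of the set. The 5 kb on either side of its start were covered over 100% in all 4 libraries. Within 25 kb the share was 72.2% in DMSO 1, 65.7% in AC220 1, 96.8% in DMSO 2 and 96.3% in AC220 2 (84.5% ± 17.4 against 81.0% ± 21.6, SD, n = 2; exact permutation p = 0.667). Of all 50 kb windows of the genome 99.3%, 99.2%, 99.0% and 99.5% had a lower share, in the same order. Among the libraries numbered 1 the sides of the start differed in direction: the 25 kb before it were covered over 88.7% with DMSO against 62.8% with AC220, and the 25 kb past it over 55.7% against 68.6%. Joining peaks less than 10 kb apart, the domain ran from 139 kb before the start in all 4 libraries to 500 kb past it in DMSO 1, 418 kb in AC220 1, 510 kb in DMSO 2 and 509 kb in AC220 2. It thus reached well past the length of the gene, 120 kb in RefSeq, with its upstream end at chr10:123497176 to chr10:123497404 in the 4 lists.

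The FGFR2 domain was divided into more and shorter peaks with AC220. Over the stretch of 557 kb that all 4 domains hold (chr10:122940260-123497176), DMSO 1 listed 46 peaks, AC220 1 listed 82, DMSO 2 listed 7 and AC220 2 listed 19. The median peak there was 6.32 kb wide in DMSO 1, 2.52 kb in AC220 1, 33.1 kb in DMSO 2 and 23.9 kb in AC220 2. The widest was a peak of 239 kb in DMSO 2 (chr10:123104446-123343619), against one of 100 kb in AC220 2. The covered share of the stretch was 82.0% and 71.4% for the libraries numbered 1 and 98.6% and 95.5% for those numbered 2, DMSO first. The ends of the domain depend on the joining distance: AC220 1 ended at a gap of 11.3 kb, and joining gaps under 20 kb took it to 509 kb past the start. With gaps under 5 kb joined, the domain was 135 kb long in DMSO 1, 309 kb in AC220 1, 578 kb in DMSO 2 and 559.01 kb in AC220 2. Over all peaks the median width was also lower with AC220 (1211 and 996 bp, then 2321 and 1612 bp), and whether FGFR2 differs from other broad domains in this was not tested.

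**Figure D2:**
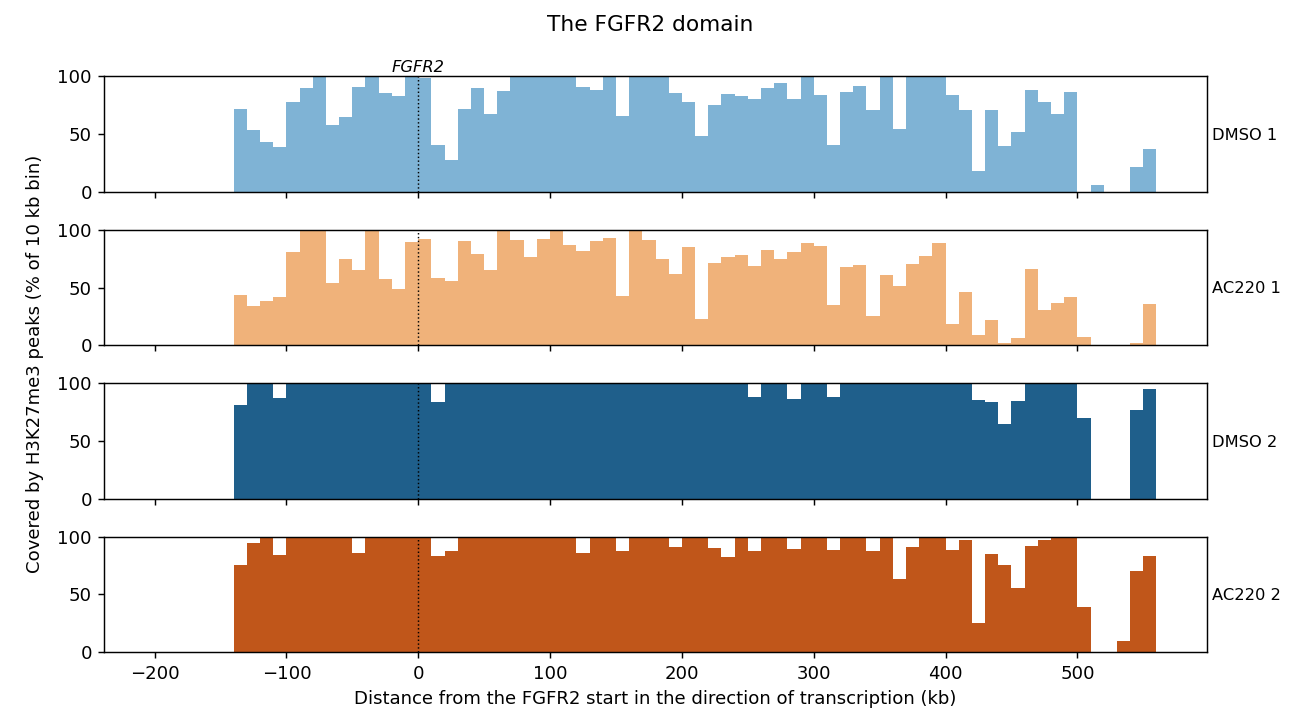
Share of each 10 kb bin covered by H3K27me3 peaks (vertical axis, %) against distance from the FGFR2 start in the direction of transcription (horizontal axis, kb), 1 panel per library. The upstream end, 139 kb before the start, is the same in all 4 libraries, and the bins of DMSO 2 and AC220 2 are nearly filled.

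FGFR1 and FGFR3 were covered far less than FGFR2 in every library. FGFR1 (8:38326 kb), the receptor of mesenchymal and neural tissue, had 0% covered within 5 kb in all 4 libraries, and its single peak within 25 kb, from 14.3 to 18.6 kb before the start across the lists, gave 1.63% in DMSO 1, 2.09% in AC220 1, 6.42% in DMSO 2 and 5.28% in AC220 2. Past the start no peak came for 449 to 465 kb. Peak-free stretches as long as the one around the FGFR1 start made up 35.1% of the genome in DMSO 1, 37.9% in AC220 1, 20.2% in DMSO 2 and 21.0% in AC220 2. FGFR3, a regulator of bone growth, had a small peak just past the start in every list, beginning 0.804 to 1.16 kb past the start and 0.834 to 1.89 kb wide, and AC220 2 listed another just before it. Within 5 kb its share was 14.02% in DMSO 1, 8.34% in AC220 1, 17.4% in DMSO 2 and 33.2% in AC220 2, with opposite directions under the 2 numbers. FGFR3 has nearly as many CpGs at its start as FGFR2, and FLT3 about as many as FLT1, as the sequences above show; these pairs were chosen for their unlike coverage, and no relation of CpG number to the mark was tested.

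**Figure D3:**
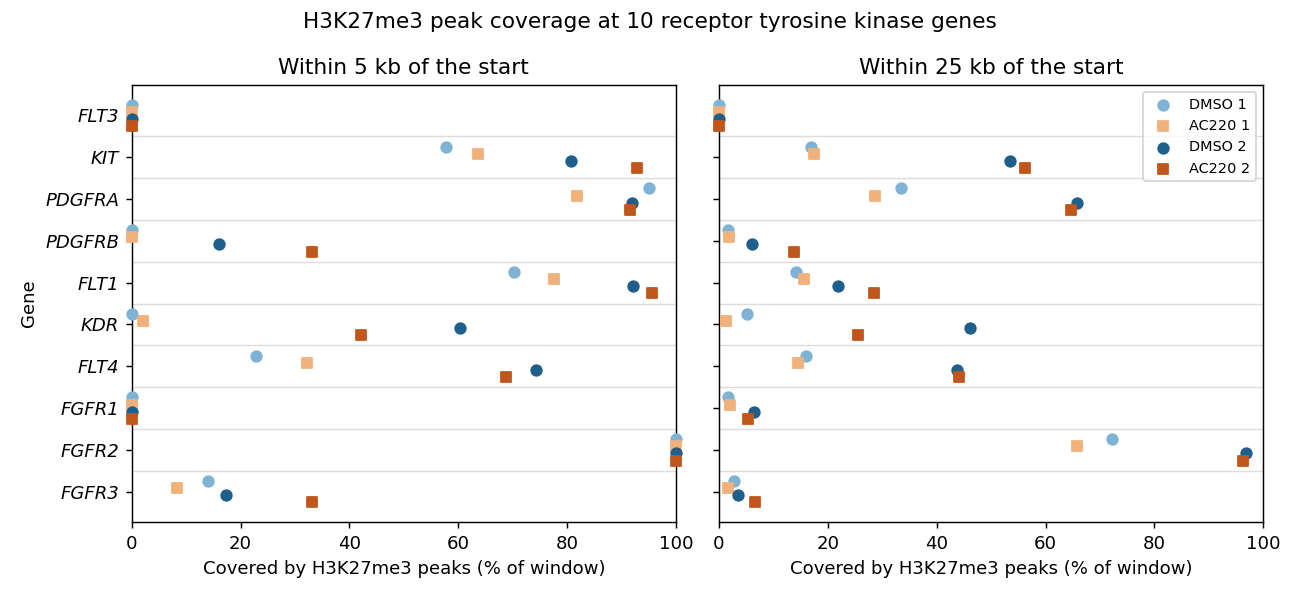
Share of the window covered by H3K27me3 peaks (horizontal axis, %) for each gene (vertical axis) within 5 kb (left) and 25 kb (right) of its start; circles are DMSO and squares AC220 libraries, light for number 1 and dark for number 2. FLT3 sits at 0% in both windows and FGFR2 at 100% within 5 kb, and for most genes between them the libraries numbered 2 lie to the right of those numbered 1.

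By the mean of the 4 libraries within 25 kb the order was FGFR2 (82.7%), PDGFRA (48.1%), KIT (36.1%), FLT4 (29.5%), FLT1 (19.98%), KDR (19.5%), PDGFRB (5.85%), FGFR1 (3.85%), FGFR3 (3.65%) and FLT3 (0%). Of neighbours in this order, FGFR2 and PDGFRA differed by more than the SD over libraries of either gene, as did FGFR3 and FLT3. The other neighbours differed by less than the larger of their SDs, which include the gap between library numbers. Within each library FGFR2 had rank 1, PDGFRA rank 2, KIT rank 3 and FLT3 rank 10, whereas KDR ranged from rank 4 in DMSO 2 to rank 9 in AC220 1. The members most like FLT3 over the 4 libraries were FGFR3 and FGFR1, at Euclidean distances of 8.17 and 8.72 percentage points, with PDGFRB next at 15.3.

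No member met the rule for a treatment difference, which asked for at least 10 percentage points in the same direction under both numbers. Within 5 kb the count was 0 of 10 lower and 0 of 10 higher. Beside it stand 9.08% and 1.37% of the 10 kb windows with a peak in any library, and 3.74% and 0.563% of all 10 kb windows. FLT3 and FGFR1 had no peak there in any list and so could not meet the rule. Within 25 kb it was likewise 0 and 0, beside 4.95% and 0.0675% of 50 kb windows with a peak and 2.9% and 0.0395% of all of them. With so few genes a count of 0 is close to these shares. Counting a difference of any size, 3 members were lower with AC220 under both numbers within 25 kb (KDR, PDGFRA and FGFR2) and 3 were higher (KIT, FLT1 and PDGFRB). Among 50 kb windows with a peak 39.5% were lower and 9.46% higher. FLT4, FGFR1 and FGFR3 went in opposite directions, and FLT3 had no value. Within 5 kb PDGFRA alone was lower under both numbers and FLT1 and KIT were higher, beside 26.4% and 8.38% of 10 kb windows with a peak. The median share of the members within 25 kb was 9.63% in DMSO 1, 8.28% in AC220 1, 32.8% in DMSO 2 and 26.97% in AC220 2, against medians over all 50 kb windows of 0%, 0%, 2.98% and 1.65%. A peak lay within 5 kb in all 4 libraries at 6 of the 10 genes, beside 19.6% of 10 kb windows, which for the most part lie away from gene starts.

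**Figure D4:**
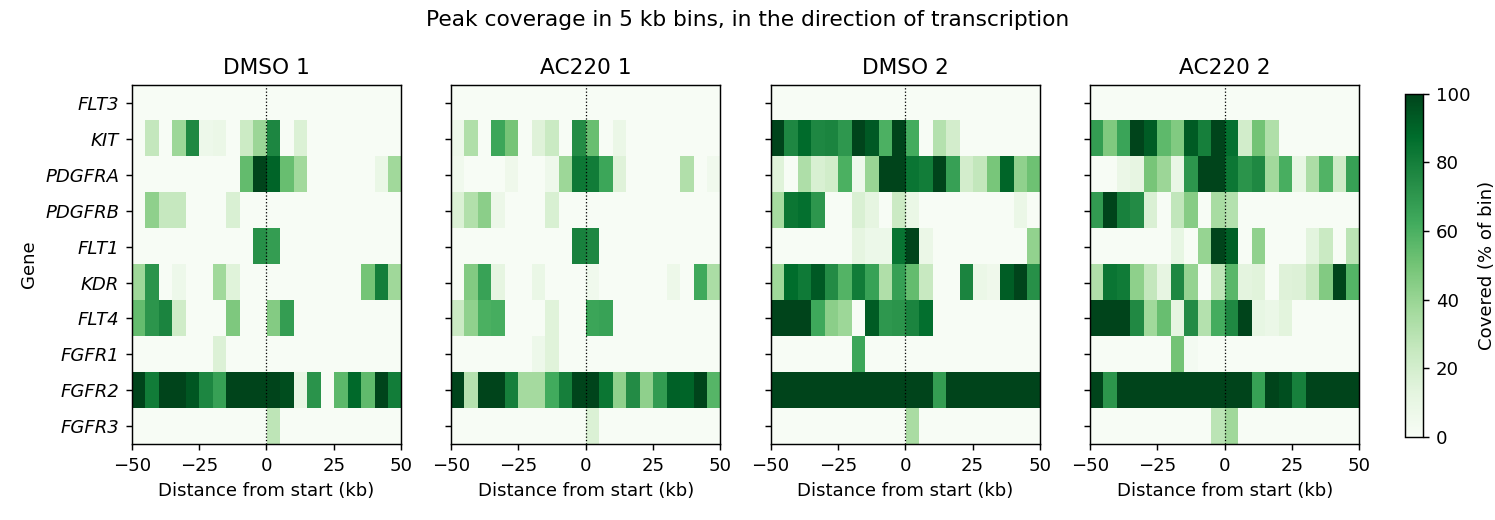
Share of each 5 kb bin covered by H3K27me3 peaks (colour, %) from 50 kb before to 50 kb past each gene's start, in the direction of transcription (horizontal axis, kb), 1 row per gene and 1 panel per library. FLT1 shows a narrow block at the start, and KIT a block at and before the start with nothing from 25 kb past it. The FGFR2 row is filled only in part in DMSO 1 and AC220 1, and is nearly filled in the other libraries.

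PDGFRA, KIT and KDR lie side by side on chromosome 4, and the array of 970 kb that holds them (chr4:55050000-56020000) was covered less with AC220 under both numbers. DMSO 1 had 9.39% covered and AC220 1 had 7.02%, a share 25.2% lower. For the libraries numbered 2 the values were 44.6% and 34.3%, a share 23.1% lower. The difference of the means (26.99% ± 24.9 with DMSO and 20.7% ± 19.3 with AC220, SD, n = 2) was smaller than the spread within a treatment (exact permutation p = 0.667). The difference of the means turned to 0.266 points higher with AC220 when each DMSO list was cut to the covered length of the matching AC220 list, and to 0.612 points higher when all lists were cut to the shortest. Chromosome 4 as a whole was 21.4% lower among the libraries numbered 1 and 26.7% lower among those numbered 2, close to the array's own values. Of the windows of the array's length that reached 2% coverage in DMSO 1 and in DMSO 2, 21.3% had ratios at least as low under both numbers.

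Within the array the mark filled the stretch between the starts of PDGFRA and KIT more than that between KIT and KDR. The first was covered over 13.8% in DMSO 1, 10.2% in AC220 1, 63.9% in DMSO 2 and 49.7% in AC220 2. The second was covered over 4.66% and 3.67%, and over 26.2% and 19.7%, in the same order. Of 82 bins of 10 kb with a peak, 9 were lower with AC220 by at least 10 points under both numbers and 0 were higher; the resulting 10.98% is near the 9.08% of all such windows. Of these 9 bins 6 were centred between -319 and -89 kb from the KIT start, and the others at 211, 431 and 491 kb, where the KDR start is at 468 kb. The array held 65 peaks in DMSO 1, 57 in AC220 1, 98 in DMSO 2 and 141 in AC220 2, with median widths of 853 bp, 843 bp, 3578 bp and 1362 bp in that order.

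**Figure D5:**
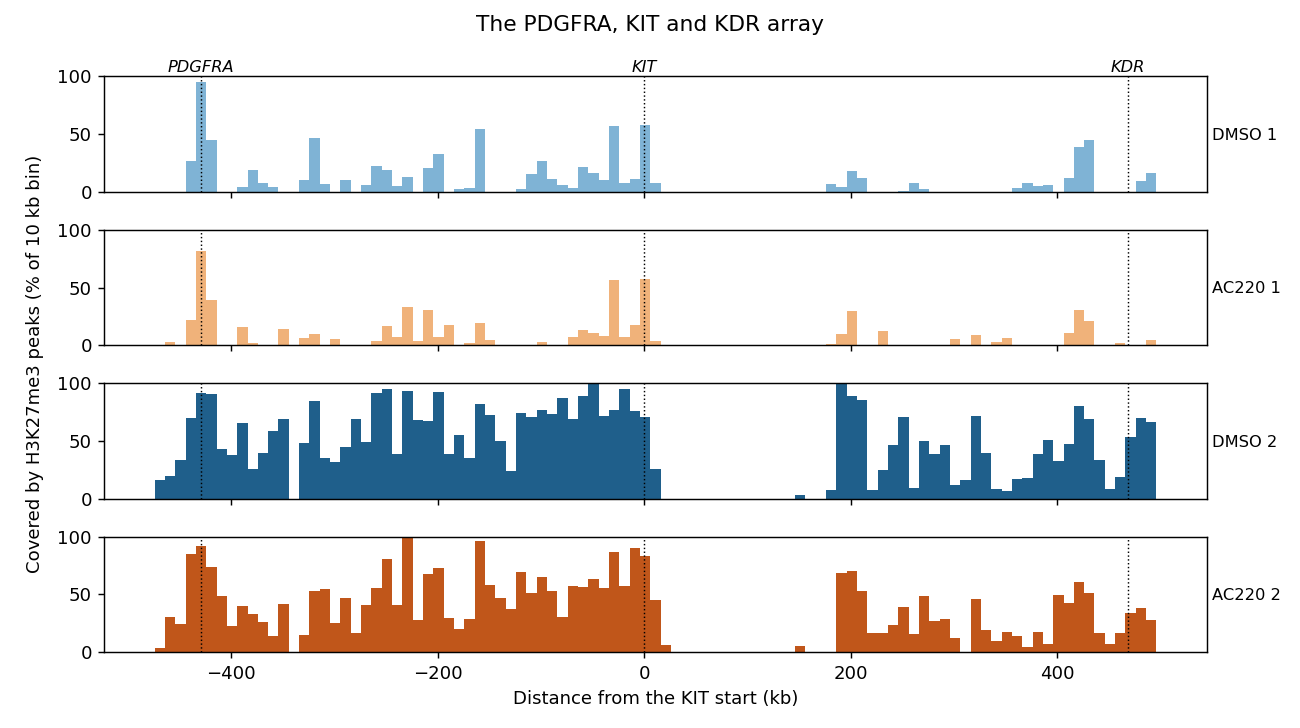
Share of each 10 kb bin covered by H3K27me3 peaks (vertical axis, %) along the array, against distance from the KIT start (horizontal axis, kb), 1 panel per library; dotted lines mark the starts of PDGFRA, KIT and KDR. Coverage is high over the PDGFRA and KIT starts, and the 130 kb without a peak past KIT are empty in all 4 libraries.

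Ligands and further receptors of the same families, 15 genes in all, ranged from no peak to a mean of 67.4% covered. Within 25 kb of the start, 8 of them had a peak in all 4 libraries and 3 in none, beside 36.1% and 41.5% of all 50 kb windows. The 3 without a peak were FLT3LG, which encodes the FLT3 ligand, VEGFB and PDGFC. None of the 15 was lower and none higher by 10 points under both numbers. The shares were 4.95% and 0.0675% of 50 kb windows with a peak, and 2.9% and 0.0395% of all 50 kb windows. The most covered were PDGFB, a ligand of both PDGF receptors (60.6% and 57.6% in DMSO 1 and AC220 1, 71.6% and 79.7% in DMSO 2 and AC220 2), FGF2 (28.2%, 23.6%, 49.6% and 45.0%), FGF1 (21.0%, 20.7%, 36.3% and 41.5%) and the receptor gene FGFR4 (14.7%, 11.7%, 31.8% and 32.1%). KITLG, which encodes the KIT ligand, had 0% in DMSO 1 and AC220 1, 0.764% in DMSO 2 and 3.08% in AC220 2. CSF1R, the macrophage growth factor receptor and the remaining class III receptor, chosen for naming after its values were seen, had 0%, 0%, 1.60% and 2.48%. Within 5 kb VEGFC, a ligand of FLT4, was the 1 gene of 15 that met the 10 point rule, with 75.3% in DMSO 1, 53.6% in AC220 1, 100% in DMSO 2 and 76.2% in AC220 2. As given above, 9.08% of 10 kb windows with a peak, and 3.74% of all 10 kb windows, were lower by this rule. Starts of these 15 genes are approximate GRCh37 positions from general knowledge, and all lay within 2 Mb of the RefSeq position on the same chromosome, a coarse check across builds.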

How the data were processed

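The submitters' processing notes list the tools BWA 0.7.10-r789 and MACS2 2.1 but no settings. Per the labels' protocols, cells were fixed with paraformaldehyde and sonicated. The authors deposited 1 broad peak list per immunoprecipitated library, with positions in bp, a fold enrichment (ratio over the library's own background), a p-value and a q-value as -log10, and a score. The deposited q and fold are the authors' values, and peaks were ranked inside 1 list at a time. The stricter q cutoffs were the same fixed values in every list. Differences between treatments under these cutoffs thus compare q across lists. The genome build and any use of inputs or Drosophila reads are not given in the sources used here. GRCh37 fits the contig names and the peak ends, and its chromosome lengths came from GenomeInfoDb. Depth is unknown.

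Covered shares were computed in Python 3.11.15 (numpy 2.4.6, pandas 2.3.3), and tested on simulated lists. Group means were compared with an exact permutation test (scipy 1.17.1), two-sided, over 6 assignments. Starts came with the gene list; strands came from RefSeq, and for FLT4 and FGFR1 from general knowledge. Background windows of 10 and 50 kb were tiled along chromosomes 1 to 22 and X. All 10 members are named; of the 15 further genes, the 4 most and 4 least covered within 25 kb, any that met the 10 point rule, and CSF1R. Members and lists were chosen with earlier results of these data known; the FGFR2 domain, the FLT3 flanks and the KIT gap were described after the data had been seen. Alternatives used stricter q, trimmed lists, other windows and thresholds, and left-out libraries. Figures used matplotlib 3.10.9.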

Additional observations from a re-analysis of the deposited data

How the results depend on the processing

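Differences below are AC220 minus DMSO in percentage points of covered share, of the group means. The mean difference over the 10 members within 5 kb was 1.51, and -4.87 with peaks of -log10 q of at least 2, -0.317 with at least 5 and 4.34 with all lists trimmed to the shortest; within 25 kb it was -0.905, and -2.51 (q of at least 2), 0.669 (each DMSO list cut, weakest peaks first, to the covered length of the matching AC220 list) and 1.46 (all lists trimmed). The array difference of -6.34 was 0.266 and 0.612 with those trimmings. Directions of single genes also turned. With -log10 q of at least 2 the differences within 5 kb were -13.5 for FLT4 and -6.23 for FGFR3. Within 25 kb they were 2.64 for FGFR1 and -1.25 for FGFR3. With at least 5, KIT was -40.4 (5 kb) and -11.1 (25 kb) and PDGFRA 1.18 (25 kb). The KIT values rest on DMSO 2, the only list whose KIT start peak passed this cutoff. Its -log10 q was 6.81, against 4.92 in AC220 2, 4.89 in DMSO 1 and 3.31 in AC220 1. With DMSO lists trimmed, FLT4 was 3.89 and FGFR1 3.68 (25 kb); with all trimmed, KDR was 1.09 and FGFR3 -2.84 (5 kb), and FLT4 15.1, FGFR1 1.04 and FGFR3 -0.568 (25 kb). Moving starts by 1 kb, an alternative chosen after seeing the data, gave -0.610 for FLT1 and -1.07 for FLT4 within 5 kb. The other alternatives kept the direction where they gave a value; 11 gave none, since no peak was left. The cause was not tested. Each q cutoff was the same in every list, although q may not be comparable between lists of unknown depth. A cutoff of at least 5 left 66.5 Mb covered in DMSO 2 and 33.8 Mb in AC220 2. In DMSO 1 and AC220 1 it left 2.16 Mb and 1.99 Mb. Differences under a q cutoff therefore include any effect of the cutoff itself. The KDR difference within 25 kb (-12.2) was -1.22 with all lists trimmed, -0.135 without AC220 1 and 8.20 without DMSO 2.

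Leaving out a library or a number gave ranges of -8.04 to 11.1 for the mean within 5 kb, -10.5 to 8.71 within 25 kb and -23.9 to 11.3 for the array. Within 5 kb the ranges were -5.56 to 16.3 (FLT1), -23.8 to 27.6 (FLT4), -5.65 to 23.5 (KIT), -38.1 to 22.2 (KDR), -13.1 to -0.350 (PDGFRA), -8.05 to 25.02 (PDGFRB) and -7.35 to 17.5 (FGFR3). Within 25 kb they were -2.42 to 10.5 (FLT1), -15.4 to 14.2 (FLT4), -17.9 to 21.0 (KIT), -32.6 to 8.20 (KDR), -20.8 to 15.1 (PDGFRA), -2.16 to 9.83 (PDGFRB), -2.74 to 2.05 (FGFR1), -18.8 to 11.8 (FGFR2) and -1.47 to 3.50 (FGFR3). Removing 1 library leaves the numbers unbalanced.

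The count of members lower within 5 kb, 0 by the main rule, was 1 with -log10 q of at least 2 and 1 for any size; the count higher was 1 at 5 points, 1 with all lists trimmed and 2 for any size. With either number alone 1 was lower and 0 to 3 were higher. Within 25 kb 3 were lower and 3 higher at any size, and 0 to 1 lower with either number alone. A peak lay within 25 kb in all 4 libraries at 9 members, beside 36.1% of all 50 kb windows. Of these 9 members, 2 had at least 20% covered in each library and 4 kept a peak with -log10 q of at least 2. For these narrower counts no share over all windows was computed. Of the 15 further genes 1 was lower within 5 kb, against 0 within 25 kb. With the replicate number as a block, sign permutation gave p = 0.5 for 10 results and p = 1 for 8. The array (-6.34) was among those at 0.5, the smallest p that sign permutation allows here. The calls use no p-value, so this test could not change them. Deviations of same-numbered libraries correlated at 0.84 over 35541 windows of 50 kb. Both lists numbered 2 cover more of the genome, which pushes both deviations the same way, so this value cannot show pairing. Nothing in the labels pairs these libraries. Unknown depth limits every value.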
